A study of Rattus norvegicus with 16 samples.

Results

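The pineal gland of the rat was compared between hour 12 and hour 6 on 4 arrays, 1 for each of the conditions titled ZT 6, ZT 12, CT 6 and CT 12. The series holds 16 arrays of total RNA, and the other 12 are retina, with 3 at each of the same conditions. ZT, Zeitgeber time, is by convention set by the lighting schedule and starts when the lights come on, whereas CT, circadian time, is set by the animal's own clock in its absence. The labels do not describe the lighting, and they give no strain, age or sex of the animals and no statement on pooling. Probe sets, the groups of probes that read 1 transcript, were kept where the intensity was 500 or more on at least 1 of the 4 pineal arrays. This left 5222 of 8799 probe sets and 3269 genes with a single symbol. The highest value of a probe set on the 4 arrays was 500.2 just inside the limit and 499.8 just outside it. The limit itself favours differences, since 295 probe sets were kept only through the arrays at hour 12 and 404 only through those at hour 6. Hours were compared within each regime as a difference of log2(value + 16), and a gene was counted as higher or lower where it differed by at least 1 log2 unit (2-fold) in the same direction in both regimes.

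The labels of the pineal arrays disagree with each other in places. The array titled ZT 12 has a time of 6 h in its description, and the source name of all 4 pineal arrays reads as retina. The hour in the title was used. Hour differences of the genes described are given mostly for each regime, since the CT pair does not involve that array. Means over both regimes, medians of gene lists and the comparison with the retina do involve it. All 10 measured markers of pinealocytes, the melatonin-producing cells of the gland, passed the limit. Their sum does not tell the tissues apart: it was 150263 to 176632 on the pineal arrays and 112964 to 176654 on 11 of the 12 retina arrays. Tryptophan hydroxylase Tph1, the first enzyme of serotonin synthesis, had intensities of 27405 at ZT6, 18774 at ZT12, 25790 at CT6 and 20515 at CT12, against 13.7 to 246.6 on the retina arrays. Asmt, the last enzyme of melatonin synthesis, was between 11357 and 14977 on the pineal arrays and at most 689.0 in the retina. All 4 pineal arrays thus carried these enzymes at levels that no retina array reached. The 3 rod markers summed to between 11813 and 19391 on the pineal arrays and to between 132356 and 180584 on 11 of the 12 retina arrays. The retina array CT12 number 1 went against its label, with a rod sum of 10005 and a lens sum of 3836227, where the other retina arrays had lens sums of 53200 to 2500247. That array enters only the comparison of the tissues, where the values without it are given beside those with it. The retina array CT12 number 2 stays in both. It had a lens sum of 2500247 and a skeletal muscle sum of 52008, where the other retina arrays had muscle sums of 3887 to 8174. Nothing in the labels says that the arrays came from separate animals, so p-values measure only the spread between these arrays.

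The mammalian pineal gland makes melatonin at night. At night the central clock in the brain drives noradrenaline release from sympathetic nerves in the gland, which acts through adrenergic receptors, cyclic AMP and the transcription factor CREB. In rodents this induces transcription of Aanat, the enzyme that sets the rhythm of melatonin synthesis, and of many other genes, among them immediate early genes and the cyclic AMP modulator Crem. CREB binds the cyclic AMP response element, or CRE. The clock inside cells runs on a feedback loop in which Bmal1 and Clock drive Per and Cry genes, whose products repress their own transcription.

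On the arrays, 96 probe sets (1.84%) were at least 1 log2 unit higher at hour 12 in both regimes and 72 (1.38%) were lower. Per gene, with the brightest probe set standing for it, 59 genes were higher and 46 lower. In the ZT pair alone 261 probe sets (5%) were higher and 329 (6.3%) lower, a balance that turned to 332 and 256 when the arrays were brought to a common median and to 303 and 277 with quantile normalization. In the CT pair alone 251 (4.81%) were higher and 270 (5.17%) lower. A further 41 probe sets differed by at least 1 log2 unit in opposite directions in the 2 regimes. The ZT and CT differences had a Pearson correlation of 0.37 and a Spearman correlation of 0.33 over the 5222 probe sets, which are not independent and share the scaling of their arrays. The higher genes reached further from 0 than the lower ones: 13 higher genes but 1 lower gene, Nrgn, differed at least 4-fold in both regimes.

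**Figure D1:**
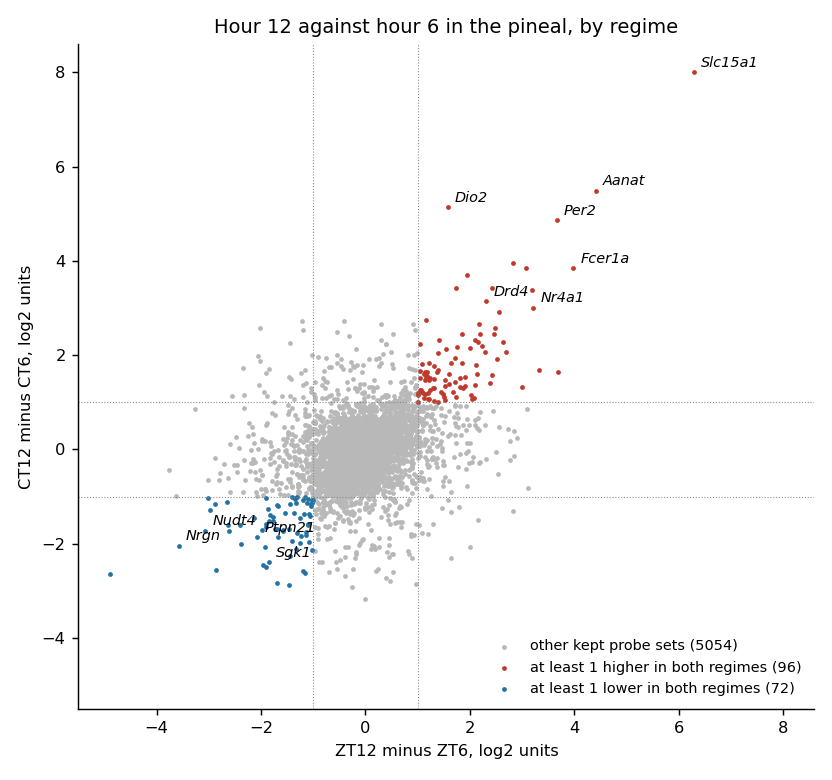
Difference between hour 12 and hour 6 under ZT (x axis) and under CT (y axis), in log2 units, for each of the 5222 kept probe sets; dotted lines mark 1 log2 unit. The 96 probe sets higher in both regimes stretch to 6.28 and 8.003 for Slc15a1, while most of the 72 lower ones lie closer to the dotted lines.

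With 1 array a condition there is no test within a regime. Over both regimes, limma with the regime as a term left 1 residual degree of freedom and called 0 of 5222 probe sets (0%) at an adjusted p of 0.05. At an unadjusted p under 0.05 there were 722 probe sets, where 261.1 are given by chance, and the smallest adjusted p was 0.161. On simulated data this fit returned the sizes put in but called none of the changed probe sets, so a count of 0 says little about whether genes differed. The simulated spread was itself estimated with 1 residual degree of freedom and shuffled between probe sets, so it may not match that of the arrays. The count depended on the fit: 87 probe sets passed with the limit at 1000, 282 with 500 or more on all 4 arrays, 489 with a trended robust prior and 5 without the regime term. Differences between the hours below are therefore sizes, with the standard error (SE) of the limma fit where given, and not calls of that test.

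The gene with the largest difference was Slc15a1, which encodes the proton-coupled oligopeptide transporter PepT1. Its intensity was 40.2 at ZT6, 4362 at ZT12, 18.7 at CT6 and 8888 at CT12. It was thus near the bottom of the scale at hour 6 and well measured at hour 12 in both regimes, and the difference was 6.28 log2 units under ZT and 8.003 under CT (mean 7.14 ± 0.48, SE). Because the lower values are small, the size depends on the offset, with a mean of 7.77 at an offset of 1 and 6.08 at an offset of 64. A shorter transcript of this gene is known from the pineal at night, and the annotation does not say which transcript the probe set reads.

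Aanat, arylalkylamine N-acetyltransferase, had an intensity of 579.1 at ZT6 and 12652 at ZT12, and of 431.5 at CT6 and 20036 at CT12. Both arrays at hour 12 lay far above both at hour 6, by 21.3-fold under ZT and 44.8-fold under CT (mean difference 4.95 ± 0.34 log2 units). Fcer1a, the alpha chain of the high-affinity IgE receptor, was at 2802 and 44493 in the ZT pair and at 3401 and 49005 in the CT pair. Its difference was of nearly the same size in both regimes, 15.8-fold and 14.3-fold, and a second probe set of the gene differed by 3.07 and 3.84 log2 units. Drd4, the dopamine D4 receptor, was at 6870 and 34163 in the ZT pair and at 3893 and 34627 in the CT pair, which is 4.96-fold and 8.86-fold higher at hour 12.

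The clock gene Per2 had intensities of 67.9 at ZT6, 1045 at ZT12, 43.8 at CT6 and 1725 at CT12. It was under the limit of 500 on both arrays at hour 6, and was higher at hour 12 by 3.66 log2 units under ZT and 4.86 under CT (mean 4.26 ± 0.36, and 3.56 with an offset of 64). Dusp1, a phosphatase that inactivates MAP kinases, was at 335.3 and 3195 in the ZT pair and at 362.1 and 3947 in the CT pair. The orphan nuclear receptor Nr4a1, an immediate early gene, was at 980.9 and 9202 under ZT and at 1076 and 8772 under CT. For both genes the arrays of each hour lay close together and the hours lay 8.05-fold to 10.5-fold apart. A second, dimmer probe set of Nr4a1 differed by 0.99 and 0.37 log2 units only, so the probe sets of this gene disagree in size.

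**Figure D2:**
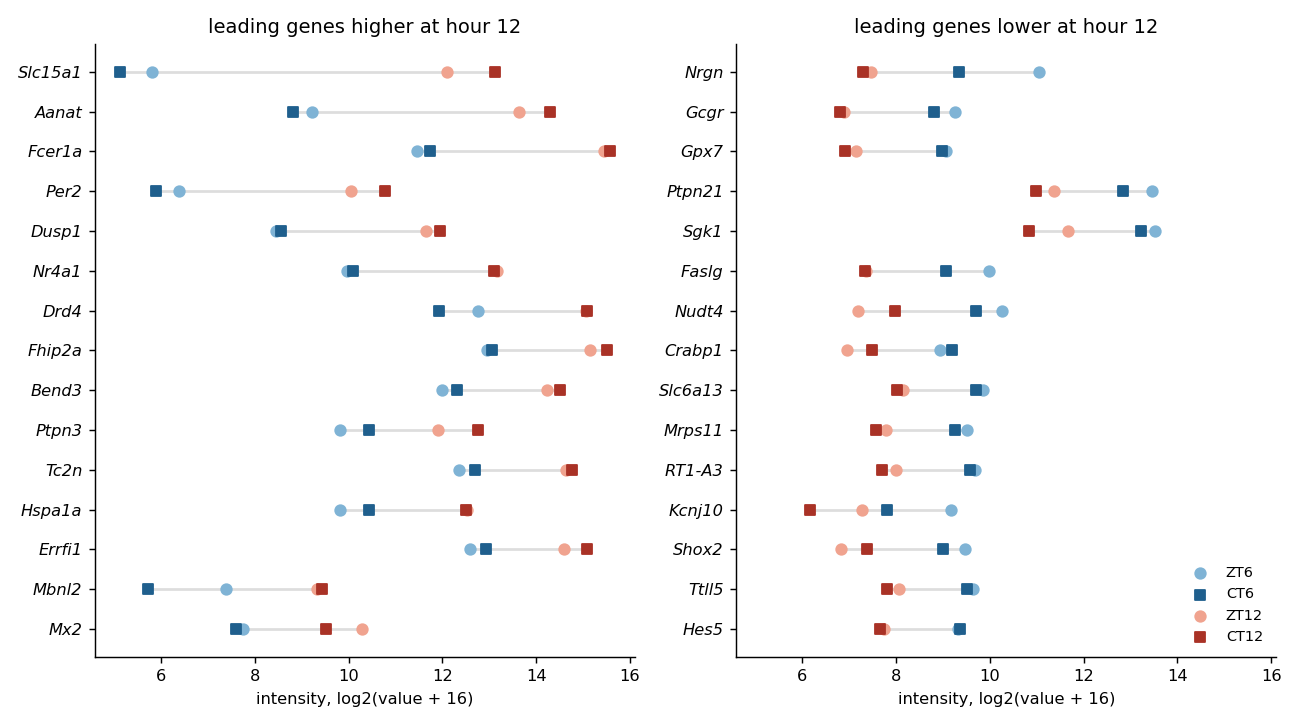
Intensity on each of the 4 pineal arrays, as log2(value + 16), for the 15 genes with the largest difference in each direction, ordered by the smaller of their ZT and CT differences; circles are ZT arrays and squares CT arrays. The hours do not overlap for any gene shown, which follows from how the genes were chosen; Fcer1a and Nr4a1 have nearly equal values in both regimes, and Mbnl2, Nrgn and Kcnj10 differ between the regimes at hour 6.

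The other 8 of the 15 leading genes were between 3.79-fold and 13.1-fold higher, the last being Mbnl2 under CT over a value of 36.9, which becomes 7.34-fold with an offset of 64. They were Fhip2a, Bend3, Ptpn3 (a tyrosine phosphatase), Tc2n, Hspa1a (the inducible heat shock protein of the Hsp70 family), Errfi1 (an inhibitor of the epidermal growth factor receptor), Mbnl2 (a splicing regulator) and Mx2 (an interferon-induced GTPase). Fhip2a was at 7846 and 36174 under ZT and at 8540 and 46556 under CT, and Errfi1 at 6138 and 24646 under ZT and at 7824 and 34753 under CT. Both were bright on all 4 arrays, so their differences do not rest on values near background. Bend3 had a second probe set that did not share its difference (−0.12 under ZT and −0.39 log2 units under CT). For 9 of the 15 genes the CT difference was the larger. Of all 59 higher genes, 35 were at 500 or more on all 4 arrays, and 21 were under 500 on both arrays at hour 6.

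The promoters of the leading genes were searched for the CRE half-site TGACG, its palindromic full form TGACGTCA and the E-box CACGTG, the site of clock proteins, on both strands; a full CRE holds 2 overlapping half-sites. The windows run from 250 bases before to 50 bases after the annotated start in RefSeq's GRCr8 assembly, and 13 of the 15 higher genes had one. The half-site was present in 10 of these 13 genes (76.9%) and in 3 of 13 of the lower genes with a window (23.1%). It was present in 840 of 2696 kept genes with a window (31.2%) and in 7097 of all 33469 promoter windows (21.2%). A gene was counted where any of its annotated windows held the site, whereas shares of all promoters are per window, an unlike unit. Median GC content was 61.0% in the promoters of the higher genes, 62.2% in those of the lower and 60.7% in those of the kept genes. Of the 18 cyclic AMP night genes with a window, 7 (38.9%) held the half-site in any of their windows. Dusp1 alone among the 13 (7.69%) had the full CRE and the E-box. The shares were 2.56% and 9.46% of the kept genes with a window, and 1.83% and 6.42% of all promoter windows. Sequences are shown 5′ to 3′ on the strand of the gene for 6 higher genes and for Sgk1, the leading immediate early gene that was lower; capitals mark half-sites (TGACG or CGTCA), full CREs and E-boxes.
Aanat promoter, chr10:102326073-102326372, plus strand: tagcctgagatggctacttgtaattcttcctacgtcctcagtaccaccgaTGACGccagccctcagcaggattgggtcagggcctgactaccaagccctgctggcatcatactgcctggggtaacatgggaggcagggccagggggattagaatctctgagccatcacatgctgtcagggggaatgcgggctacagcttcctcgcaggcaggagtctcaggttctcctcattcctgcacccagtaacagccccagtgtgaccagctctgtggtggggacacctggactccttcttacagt
Slc15a1 promoter, chr15:104949295-104949594, minus strand: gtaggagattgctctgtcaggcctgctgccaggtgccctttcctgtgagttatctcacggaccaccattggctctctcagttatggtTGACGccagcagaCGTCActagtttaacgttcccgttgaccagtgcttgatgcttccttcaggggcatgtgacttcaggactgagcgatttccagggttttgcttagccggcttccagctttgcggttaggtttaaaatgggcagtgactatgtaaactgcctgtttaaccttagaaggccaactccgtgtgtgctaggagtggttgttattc
Fcer1a promoter, chr13:88224630-88224929, minus strand: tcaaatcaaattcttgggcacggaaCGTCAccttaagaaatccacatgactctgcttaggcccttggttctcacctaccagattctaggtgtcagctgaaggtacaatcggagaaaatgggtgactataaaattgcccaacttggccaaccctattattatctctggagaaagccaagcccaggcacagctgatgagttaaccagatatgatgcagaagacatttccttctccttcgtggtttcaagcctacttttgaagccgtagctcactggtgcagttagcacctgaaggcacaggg
Per2 promoter, chr9:99496944-99497243, minus strand: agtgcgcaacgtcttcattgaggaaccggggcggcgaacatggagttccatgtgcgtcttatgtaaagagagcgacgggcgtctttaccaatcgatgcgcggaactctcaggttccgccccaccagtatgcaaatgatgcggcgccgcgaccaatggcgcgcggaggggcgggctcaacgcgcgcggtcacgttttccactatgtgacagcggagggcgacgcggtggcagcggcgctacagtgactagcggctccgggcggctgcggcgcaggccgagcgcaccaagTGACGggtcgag
Dusp1 promoter, chr10:17184603-17184902, plus strand: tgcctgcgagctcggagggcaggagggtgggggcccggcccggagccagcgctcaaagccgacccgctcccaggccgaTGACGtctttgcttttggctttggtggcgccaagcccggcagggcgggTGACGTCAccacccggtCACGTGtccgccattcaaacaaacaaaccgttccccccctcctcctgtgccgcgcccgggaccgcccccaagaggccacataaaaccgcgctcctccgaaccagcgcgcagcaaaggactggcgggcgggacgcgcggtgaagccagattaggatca
Nr4a1 promoter, chr7:134259888-134260187, plus strand: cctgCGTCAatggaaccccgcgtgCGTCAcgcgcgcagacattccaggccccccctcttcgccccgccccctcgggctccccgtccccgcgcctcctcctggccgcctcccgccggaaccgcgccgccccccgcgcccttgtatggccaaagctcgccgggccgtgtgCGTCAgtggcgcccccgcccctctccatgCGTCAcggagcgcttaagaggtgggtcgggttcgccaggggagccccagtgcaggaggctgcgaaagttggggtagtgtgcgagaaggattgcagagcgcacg
Sgk1 promoter, chr1:24807182-24807481, minus strand: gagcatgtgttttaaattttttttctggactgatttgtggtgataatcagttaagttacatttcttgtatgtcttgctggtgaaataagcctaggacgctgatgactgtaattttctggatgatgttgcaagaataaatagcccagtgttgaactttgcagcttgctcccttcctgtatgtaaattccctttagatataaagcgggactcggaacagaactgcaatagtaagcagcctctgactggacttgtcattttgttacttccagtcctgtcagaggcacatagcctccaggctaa
In Aanat the half-site began 200 bases before the start, in Slc15a1 163 and 150 bases before it, and in Per2 39 bases after it. Nr4a1 had 4 half-sites, at 246, 226, 82 and 53 bases before the start. The Sgk1 window held neither half-site nor E-box. A match describes the letters only and is no evidence of a bound site, and the start used in the pineal may be another than the annotated one, as for Slc15a1.

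Among the genes of melatonin synthesis and its cofactors, Aanat was the single one of 15 that was higher in both regimes, and none was lower; over all kept genes 1.8% were higher and 1.41% lower. The enzymes before and after it in the pathway differed little: Tph1 by −0.55 under ZT and −0.33 log2 units under CT, Asmt by −0.16 and −0.40, and the decarboxylase Ddc by 0.31 and 0.66. Mat2a, which makes the methyl donor used by Asmt, was at 1545 and 2989 under ZT and at 1972 and 6389 under CT, so it passed the size rule in the CT pair only. Gchfr, the regulator of GTP cyclohydrolase, likewise differed by 0.19 under ZT and 1.92 under CT. Gch1, the cyclohydrolase that starts the cofactor pathway of tryptophan hydroxylase, differed by −0.19 and 0.04 on its brightest probe set and by −0.43 and −0.59 on another. The median mean difference of the 15 genes was 0.10, beside −0.08 over all kept genes.

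The genes known to be induced through cyclic AMP in the pineal at night were mostly on the same side. Of 20 on the array 19 passed the limit, and 8 of these (42.1%) were higher in both regimes and none lower, with a median mean difference of 1.01. Over all kept genes 1.8% were higher and 1.41% lower. The list was chosen with earlier results of these data known, so its share and median describe the members and support nothing further. The 8 were Slc15a1, Aanat, Nr4a1, Crem, Dio2, Pde4b, Pde4d and Irs2. Dio2, the deiodinase that activates thyroid hormone, was at 271.1 and 838.0 under ZT but at 54.0 and 2451 under CT. Its difference was 2.97-fold under ZT and 35.2-fold under CT, but the CT6 value is near the bottom of the scale, and with an offset of 64 the folds were 2.69 and 21.3. Pde4b and Pde4d encode phosphodiesterases that degrade cyclic AMP; Pde4b was at 26275 and 68653 under ZT and at 27580 and 88698 under CT, and Pde4d at 700.3 and 1579 and at 419.5 and 2908. The insulin receptor substrate Irs2 was 2.28-fold and 2.94-fold higher. Members that did not differ by the rule included Fosl2 (−1.52 and 0.15), the prostaglandin synthase Ptgs2 (1.27 and 0.74), Nr4a2 (−0.12 and 0.46), Id1 (0.16 and 0.11) and Id3 (−0.36 and −0.40). The copper transporter gene Atp7b, under the limit on every array, was at 71.0 and 310.4 under ZT and at 103.3 and 369.7 under CT.

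Crem was read by 3 probe sets, all with higher values at hour 12. The brightest was at 1135 and 2501 under ZT and at 932.4 and 2844 under CT, a 2.19-fold and 3.02-fold difference. A second one was at 542.5 and 2965 and at 412.3 and 4564, a difference of 2.42 and 3.42 log2 units, and the third differed by 3.68 and 1.64. The probe sets of this gene thus share a direction but differ in size; which transcripts each reads is not given in the annotation used.

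In the core clock list 8 of 9 genes passed the limit, Timeless being below it. Per2 was the single gene higher in both regimes (12.5%, beside 1.8% of all kept genes). Bmal1, the partner of Clock, was at 3556 and 2289 under ZT and at 4856 and 1943 under CT, with a second probe set at −1.83 and −1.40 log2 units. Both probe sets thus had lower values at hour 12 in both regimes, but the brighter one differed by −0.63 under ZT and missed the size rule there. Nr1d2, a nuclear receptor that represses Bmal1, was higher by 0.81 and 1.16, and Rorb, a receptor that activates it, by 0.95 and 2.53. Nr1d1 differed by −0.28 and −0.46, Csnk1d, a kinase of PER proteins, by 0.35 and 0.51, and Bhlhe40 and Bhlhe41 by at most 0.61. Of the clock output genes Dbp, a transcription factor driven by the clock, was at 7389 and 16725 under ZT and at 9559 and 16085 under CT. Its difference of 1.18 under ZT was past the size rule and that of 0.75 under CT was not. Tef differed by −0.44 and −0.52, and Hlf and Klf9 by at most 0.30.

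Immediate early genes, which answer within minutes to many stimuli, did not share a direction. Of 27 on the array 21 passed the limit. By their brightest probe set 6 were higher in both regimes (28.6%) and 1 lower (4.76%), beside 1.8% and 1.41% over all kept genes. The median mean difference was 0.09. The higher ones by that probe set were Dusp1, Nr4a1, Nr4a3, Junb, Egr1 and Homer1. Nr4a3 lies outside the naming rule and was added after its values were seen, as was Fos. Egr1, a zinc finger transcription factor, was at 38172 and 81270 under ZT and at 41241 and 95740 under CT, a difference of 1.09 and 1.21 log2 units. Its other probe sets were also higher but missed the size rule in 1 regime each, at 0.84 and 1.72 and at 2.17 and 0.42. Junb was higher by 1.80 and 1.33 log2 units on its brightest probe set and by a mean of −1.44 on another, so no direction can be given for it. Fos, the gene of this class most often used as a marker of activity, was at 2607 and 1790 under ZT and at 2014 and 1685 under CT.

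**Figure D3:**
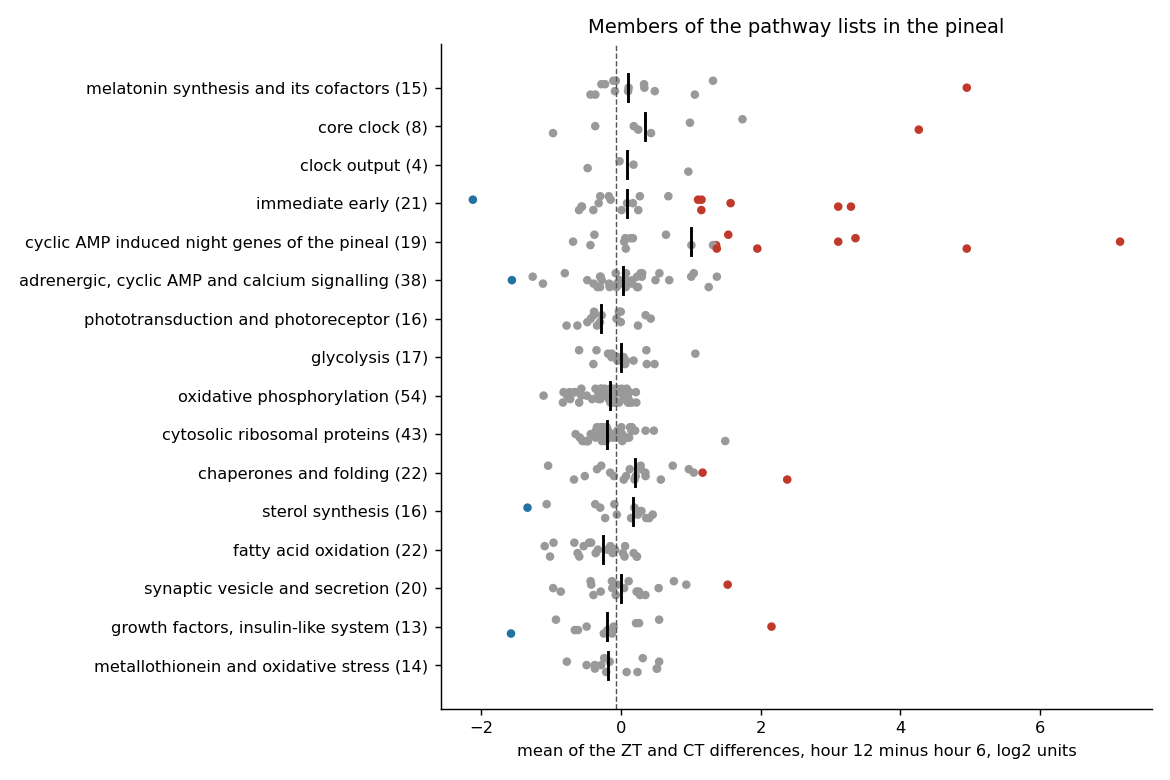
Mean of the ZT and CT differences (x axis, log2 units) for each kept gene of the pathway lists, with the number of kept genes in brackets; red points are genes at least 1 log2 unit higher in both regimes, blue points lower, black bars the list medians and the dashed line the median of all kept genes at −0.08. The night gene list has its median at 1.01, and the other lists have medians between −0.29 and 0.34. The lists were chosen with earlier results of these data known.

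Few of the genes of receptors and signalling proteins upstream of the night genes differed by the size rule among those that passed the limit. That share was low over all kept genes too, at 1.8% higher and 1.41% lower. Of 52 genes of adrenergic, cyclic AMP and calcium signalling on the array 38 passed. Those below the limit, among them the adrenergic receptor gene Adrb1 and the CREB gene Creb1, were not assessed. None of the 38 was higher in both regimes, and Adcy5, an adenylyl cyclase, was lower, at 1060 and 280.5 under ZT and at 389.5 and 152.8 under CT. Adra1b, the alpha-1B adrenergic receptor, differed by 0.11 and 0.03. Adcy8 was higher by 1.82 and 0.92, and Prkcb, a protein kinase C, by 1.98 and 0.53, both short of the rule under CT. In the insulin-like growth factor system the receptor Igf1r was at 1597 and 5792 under ZT and at 921.4 and 5136 under CT, while its ligand Igf1 was at 989.0 and 481.1 and at 960.9 and 206.4. Receptor and ligand thus lay on opposite sides, though a second Igf1r probe set differed by 0.13 and 0.15. Syt4, a synaptotagmin of secretory vesicles, was 2.32-fold and 3.58-fold higher, and a second probe set was higher by 2.55 and 2.92 log2 units. Of 22 chaperones, Hspa1a and Hspa5, the Hsp70 protein of the endoplasmic reticulum, were higher (9.09%, beside 1.8% of all kept genes). Hspa5 was at 10037 and 21056 and at 12559 and 30247, while its second probe set, at 0.70 and 0.63, missed the size rule. The 4 probe sets of Hspb1, a small heat shock protein, disagreed: the brightest differed by −1.30 and −0.79, another by −1.12 and −1.13, and a dimmer one by 0.05 and −0.04.

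Genes of energy metabolism had small differences. Of 17 kept glycolysis genes 5 were positive and 7 negative in both regimes, with a median mean difference of 0.01. None of 54 kept genes of oxidative phosphorylation reached the size rule in both regimes, and 32 were negative in both, with a median mean difference of −0.15. Cytosolic ribosomal proteins (43 genes) had a median of −0.20 and fatty acid oxidation (22 genes) one of −0.26, with 13 of its genes negative in both. Among these Cpt1a, which admits fatty acids to mitochondria, was at 5100 and 2906 under ZT and at 5478 and 2335 under CT, and Acadvl, a dehydrogenase of the pathway, differed by −0.80 and −1.39. Over all kept genes 1264 of 3269 were negative in both regimes and 838 positive in both, and the median differences were −0.07 under ZT and −0.07 under CT. By the size rule 1.8% of all kept genes were higher and 1.41% lower. Phototransduction genes, which the pineal shares with the retina, had 0 of 16 past the rule; Sag, the arrestin of photoreceptors, was higher by 0.44 and 0.41, and Pdc (phosducin) differed by −0.63 and −0.15. In sterol synthesis and lipid desaturation the desaturase Scd differed by −1.10 and −1.58, while the list had a median of 0.17.

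The genes lower at hour 12 were led by Nrgn, which encodes neurogranin, a calmodulin-binding protein of neurons. It was at 2100 and 161.3 under ZT and at 629.9 and 140.9 under CT, and its 2 values at hour 6 lay further apart than those at hour 12. The brightest of the 15 were Sgk1, a kinase induced by glucocorticoids, and Ptpn21, a tyrosine phosphatase. Sgk1 was at 11686 and 3225 under ZT and at 9513 and 1802 under CT (3.61-fold and 5.24-fold lower, mean difference −2.12 ± 0.24). Ptpn21 was at 11207 and 2640 under ZT and at 7301 and 2001 under CT. These 2 genes stayed well above the limit at both hours, unlike the others, which were under 500 on both arrays at hour 12. Of those, Nudt4, a phosphohydrolase, was at 1214 and 130.8 and at 817.7 and 237.1. Kcnj10, an inward rectifier potassium channel of glia, was at 561.3 and 138.3 and at 207.1 and 55.7. The rest were Gcgr (the glucagon receptor), Gpx7, Faslg (the Fas ligand), Crabp1 (a retinoic acid binding protein), Slc6a13 (a GABA transporter), Mrps11 (a mitochondrial ribosomal protein), the class I histocompatibility gene RT1-A3, Shox2 (a homeobox factor), Ttll5 and Hes5 (a target of Notch), with differences of 2.97-fold to 6.24-fold. Over all 46 lower genes 10 were at 500 or more on all 4 arrays, and 31 were under 500 on both arrays at hour 12.

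The summed level of blood markers was lower at hour 12. The 7 blood markers summed to 270499 at ZT6, 89265 at ZT12, 147517 at CT6 and 53210 at CT12. By the size rule 4 of them (57.1%) were lower in both regimes, beside 1.41% of all kept genes. They were the globins Hbb and Hbb-b1, Alas2, the heme synthesis enzyme of red cells, and Pf4 of platelets. Of the other blood markers 1 was positive in both regimes and 2 differed in sign between them. Hbb was at 132938 and 47832 under ZT and at 85358 and 26690 under CT. Each of the 4 lower genes was also brighter at ZT6 than at CT6. Markers of fibroblasts and meninges, tissue that covers the gland, summed to 123090, 95859, 75740 and 58941 in the order ZT6, ZT12, CT6 and CT12, with 10 of 12 negative in both regimes. Oligodendrocyte markers summed to 5729, 3923, 3757 and 2812, with Mobp lower in both. The 10 pinealocyte markers summed to 169622, 150263, 166285 and 176632, with 3 positive and 6 negative in both regimes. This list holds Aanat; with it left out, a choice made after seeing the data, the other 9 summed to 169043 at ZT6, 137611 at ZT12, 165853 at CT6 and 156596 at CT12, lower at hour 12 in both regimes. Of the other lists, 0 of the kept immune markers were past the rule. The part of the blood and connective tissue in the lower genes was not tested; in a whole gland, fewer cells of a type and less RNA per cell cannot be told apart.

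**Figure D4:**
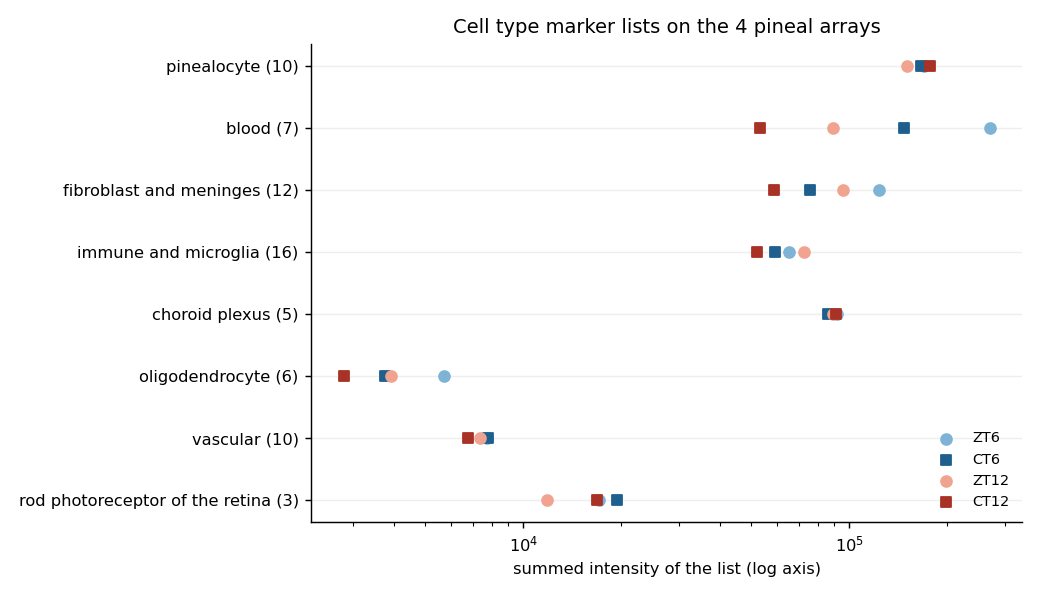
Summed intensity of cell type marker lists (log axis) on each of the 4 pineal arrays, with the number of markers measured in brackets. The blood sum runs from 53210 at CT12 to 270499 at ZT6 and is lower at hour 12 in both regimes, and the pinealocyte sum, which includes Aanat, stays between 150263 and 176632. The sum of the pinealocyte list does not tell pineal from retina.

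Whether the hour difference was larger in the pineal than in the retina was tested on all 16 arrays after quantile normalization, with limma on the 8 groups of tissue, regime and hour. Of 5222 probe sets 56 passed (1.07%), 26 with the higher difference in the pineal and 30 with the lower; 591 had an unadjusted p under 0.05. The spread in this fit comes from the retina arrays alone, so the lone pineal arrays were assumed to vary like them. The limit was set on the pineal values that enter the test: of the 15 named genes that passed, 3 were under 500 on both pineal arrays at hour 6 (Per2, Slc15a1 and Mbnl2) and 6 on both at hour 12, so for these 9 the limit favours a difference. The genes were also named largely by the size of their pineal hour difference, which enters the test too. The choice of members thus favours a difference for all 15, and their number supports nothing. Leaving out a pineal array removes its regime from the pineal side, so that without ZT12 the pineal value is that of the CT pair. The 3′ to 5′ ratios of control probe sets differed between the tissues. The GAPDH control had a ratio of 13.7 to 17.9 on the pineal arrays and 1.07 to 1.65 on the retina arrays. The actin ratio was 5.14 to 8.72 against 1.08 to 1.46. The part of these ratios in the result was not tested. Within the pineal the GAPDH ratio was 17.7 and 17.9 at hour 6 and 15.6 and 13.7 at hour 12. The actin ratio went from 8.49 at ZT6 to 5.14 at ZT12, but from 6.88 at CT6 to 8.72 at CT12. The retina array CT12 number 1 stood apart, with 27.9% of its signal in the 50 brightest probe sets against 17.4% to 22.6% on the other retina arrays. Without it 178 probe sets passed, all 56 among them, and without CT12 number 3 the count was 101, again with all 56. Without ZT6 or ZT12 of the pineal the count was 31, and without CT6 or CT12 it was 36.

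The named genes with a larger difference in the pineal were Per2, Fcer1a, Aanat, Slc15a1, Bend3, Errfi1, Mbnl2 and Igf1r. Per2 exceeded its retinal difference by 3.82 ± 0.39 log2 units (adjusted p = 0.00177, limma): it was 4.48 higher at hour 12 in the pineal and 0.66 ± 0.19 in the retina. Fcer1a differed by 4.35 ± 0.56 (adjusted p = 0.00829), with −0.63 ± 0.28 in the retina. By regime the retina differed by 0.09 under ZT and −1.35 under CT, the latter −0.94 without the array CT12 number 1, so on this probe set the tissues lay on opposite sides under CT but not under ZT. These 2 genes passed in all 16 fits that left out 1 array; without the retina array CT12 number 1 their values were 4.02 and 4.08, and without the pineal array ZT12 they were 4.37 and 4.28. Aanat exceeded the retina by 3.95 ± 0.52 (adjusted p = 0.00983), but did not pass without either of the CT pineal arrays (largest adjusted p = 0.063), and Slc15a1 by 6.76 ± 1.13 (adjusted p = 0.0176), which did not pass without any 1 of the 4 pineal arrays (6.01 to 7.50, largest adjusted p = 0.126) or with an offset of 1 (7.31, adjusted p = 0.0633). The second Crem probe set exceeded the retina by 2.61 (adjusted p = 0.0125), and failed without either CT pineal array (largest adjusted p = 0.106). Bend3 (1.74) and Errfi1 (1.94) also failed without any 1 of the 4 pineal arrays, while Mbnl2 (3.70) and Igf1r (1.71) passed in only 6 and 3 of the 16 fits. Without the retina array CT12 number 1, Aanat was at 3.82 and Slc15a1 at 7.13, and all of these genes passed. With all 16 arrays the second probe sets of Bend3 (−0.50) and Igf1r (0.06) did not pass.

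The named genes with a lower difference in the pineal were Kcnj10 (−1.93 ± 0.28, adjusted p = 0.0123), Sgk1 (−1.70 ± 0.25, adjusted p = 0.0123), Mrps11, Nudt4, RT1-A3, Nrgn and Gcgr, by limma. Fos, added after its values were seen, also passed (−1.66 ± 0.27, adjusted p = 0.016, limma): it was at −0.32 in the pineal and 1.34 ± 0.13 in the retina. It failed without any 1 of the 4 pineal arrays, and was at −1.73 without the retina array CT12 number 1. Sgk1 was 0.02 ± 0.13 apart between the hours in the retina and −1.69 in the pineal. RT1-A3 was higher at hour 12 in the retina by 1.01 ± 0.24 and lower in the pineal. Kcnj10 and Sgk1 failed without either CT pineal array, Nudt4 without either ZT pineal array, Mrps11 without any of the 4, and RT1-A3 without any of the 4 or the retina array ZT6 number 3. Nrgn and Gcgr passed in only 6 and 4 of the 16 fits. Without the retina array CT12 number 1 all 7 passed, with Sgk1 at −1.69 and Kcnj10 at −1.91.

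For some genes the answer turned on the retina array CT12 number 1. Dusp1 exceeded the retina by 2.38 ± 0.68 with it (adjusted p = 0.157, limma) and by 2.03 ± 0.24 without it (adjusted p = 0.00293). Drd4 exceeded the retina by 2.32 ± 1.17 with it (adjusted p = 0.489) and by 1.64 ± 0.26 without it (adjusted p = 0.0108). Both genes thus passed with that array left out but not on all 16 arrays, as did the brightest Crem probe set (0.92 with it and 1.05 without it, adjusted p = 0.269 and 0.0249). Dio2, at 3.10 ± 0.83 with it and 2.81 ± 0.68 without it, passed in neither fit (adjusted p = 0.132 and 0.0578). Nr4a1 was higher at hour 12 in the retina too, by 1.37 ± 0.61 with that array and 2.05 ± 0.15 without it, and its difference between tissues did not pass (1.29 ± 1.21 and 0.61 ± 0.29, adjusted p = 0.75 and 0.343). The brightest Egr1 probe set was 3.85 ± 0.50 higher in the retina and 1.34 in the pineal. Its difference of −2.51 ± 1.00 did not pass (adjusted p = 0.371), nor did the −2.88 ± 0.70 without that array (adjusted p = 0.0577). A dimmer Egr1 probe set went from −2.88 to −3.37 and passed without that array (adjusted p = 0.0442), while the third lay on the other side at 0.32. Bmal1 had values below 0 in both tissues, −0.74 in the pineal against −1.22 ± 0.48 in the retina, or −0.71 ± 0.18 without that array.

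**Figure D5:**
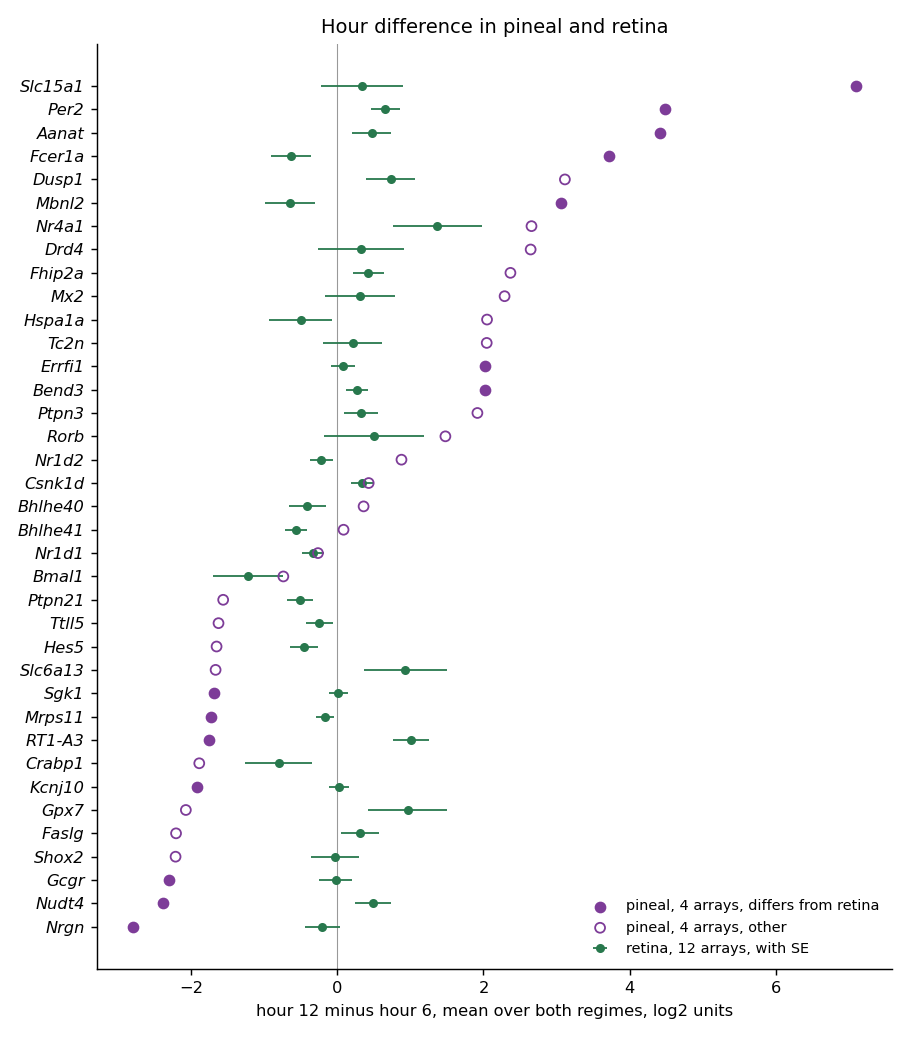
Hour 12 minus hour 6, as the mean over both regimes in log2 units after quantile normalization, for the leading genes and the core clock genes. Purple circles are the pineal (filled where the difference from the retina passed limma's adjusted p of 0.05 on all 16 arrays) and green points the retina with its standard error; Slc15a1, Per2 and Aanat lie above 4 in the pineal and below 1 in the retina.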

How the data were processed

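Total RNA of rat pineal gland (4 arrays) and retina (12 arrays) was measured on Affymetrix arrays. The authors deposited linear intensity values per probe set, with trimmed means nearly equal across arrays; how they were summarized and scaled was not given in the sources used here. Values were taken as log2(value + 16). Probe sets were kept at an intensity of 500 or more on at least 1 pineal array. Of 5222 kept, 4251 had 1 gene symbol, 207 several and 764 none. Samples were grouped by the tissue, regime and hour of the title. Tests used limma 3.58.1 in R 4.3.3 with Benjamini-Hochberg adjustment over all kept probe sets, and were tested on simulated data; tables were made with Python 3.11.15. The first fit had terms for hour and regime on the 4 pineal arrays, and the second had 8 groups on 16 quantile-normalized arrays. The number of arrays limits the precision.

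A gene was represented by its brightest kept probe set. Named were the 15 higher and 15 lower genes with the largest smaller difference of the 2 regimes, all kept members of the melatonin, core clock, clock output and cyclic AMP night lists, up to 6 members of each other pathway list by mean absolute difference, and markers. Members and lists were chosen with earlier results of these data known. Alternatives changed the offset, limit, scaling, size rule, prior, probe set choice and the arrays used.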

Additional observations from a re-analysis of the deposited data

Results flagged for a closer look

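Of the named genes and Fos, 19 probe sets had an hour difference in the pineal that differed from that in the retina by limma's test of the difference itself (adjusted p under 0.05), in log2 units after quantile normalization. Above the retina were Per2 at 3.82, Fcer1a at 4.35 and 3.76 on its 2 probe sets, Aanat at 3.95, Slc15a1 at 6.76, Mbnl2 at 3.70, Crem at 2.61 on its second probe set, Errfi1 at 1.94, Bend3 at 1.74, Igf1r at 1.71 and Hspa9, a mitochondrial chaperone, at 1.78 on a dimmer probe set. Below it were Nudt4 at −2.87, RT1-A3 at −2.77, Nrgn at −2.58, Gcgr at −2.28, Kcnj10 at −1.93, Sgk1 at −1.70, Fos at −1.66 and Mrps11 at −1.55. The other kept probe sets of Bend3 (−0.50), Igf1r (0.06), Hspa9 (1.11 and −0.66) and Crem (0.92 and 2.57) did not pass. The spread behind these tests is that of the retina arrays. Most of these genes were named by the size of their pineal difference, which enters the test, so their number supports nothing.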

How the results depend on the processing

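The counts of probe sets past 2-fold moved with the limit and the size rule. With no limit they were 688 higher and 816 lower under ZT, 707 and 650 under CT, and 163 and 148 in both. With a limit of 1000 they were 134 and 123, then 123 and 125, and 32 lower in both. With 500 or more on all 4 arrays they were 95 and 76, 90 and 75, and 50 and 16. At 1.5-fold they were 618 and 790, 574 and 770, and 239 and 270. The limma hour fit called 87 with a limit of 1000, 282 with 500 on all 4 arrays, 5 without the regime term and 489 with a trended robust prior, and 0 without each pineal array in turn; these last fits had 3 arrays and no regime term, and their 0 says nothing about stability. The tissue difference called 90 with no limit and 31 to 178 with 1 array left out. With the title number of the retina arrays as a replicate block it called 43, with 39 shared; Bend3, RT1-A3, Nrgn, Igf1r, Hspa9 and Gcgr were then not called. The numbers do not pair the samples: same-numbered retina arrays had correlations of −0.228 to 0.272, 4 of 18 over 0.1, and 4 of 12 arrays were closest to their own number. Of 1018 alternatives for the 137 named genes 62 moved the mean difference by more than the standard deviation of its ZT and CT differences. By that rule a gene whose regimes disagree can hardly move. All 62 came from the offsets, the scalings and the mean of all probe sets, and settings that changed only the limit gave none. The count therefore says little about stability. The sign changed for Maoa, Ywhae, Id1 and Hk1 with the mean of all probe sets and for Klf9 with a common median.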
